A study of Mus musculus with 4 samples.

Results

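Glycolysis is the chain of cytosolic reactions that splits glucose into pyruvate, and 10 of its enzyme genes were followed here through cultured mouse vascular smooth muscle cells. The genes were taken from the deposited tables by their symbols: Hk1, Hk2, Gpi1, Pfkl, Pfkp, Aldoa, Pgk1, Eno1, Pkm and Ldha. All 10 were found among the 22488 genes listed, and all 10 passed the filter on low values that left 11290 genes for testing. The cells came from C57BL/6 mice and were used at passages 4 to 10. They received a scramble siRNA (2 libraries) or one that targets the circular RNA circEsyt2 (2 libraries), and both groups were transfected, so neither shows untreated cells. RNA was taken after 48 hours. No label ties the replicates to separate cultures, so p-values measure the spread between these libraries, which may be technical. The passage range is the only description of the cultures, and the labels name neither a vessel nor a clone.

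The pathway has an energy-consuming opening, in which hexokinase and phosphofructokinase each spend ATP, and a later part that returns ATP through phosphoglycerate kinase and pyruvate kinase. Lactate dehydrogenase then turns pyruvate into lactate and restores the NAD that the pathway needs. Several steps have paralogous genes with tissue-specific use, such as Eno3 in muscle. Vascular smooth muscle is known for making much lactate even when oxygen is plentiful, and the transcription factors HIF1 and MYC are known activators of these enzyme genes.

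Values are FPKM, which divide a gene's reads by its length and by the library total, so genes can be set against each other as well as libraries. Read numbers recovered from the FPKM gave totals of 2516428 and 4116791 for scramble siRNA, against 3765056 and 3127224 for circEsyt2 siRNA. Of the smooth muscle markers, Acta2 (829 to 1446 FPKM), Myl9 and Cald1 were abundant, whereas Des was at 0.423 to 1.04 FPKM and Tagln at 5.08 to 10.4 FPKM. The summed FPKM of 34 hepatocyte markers was 25.6 and 20.0 in the scramble libraries, 4432 in circEsyt2 siRNA replicate 1 and 154 in replicate 2, and 12, 10, 1 and 3 of these markers were at 0. Alb, the serum albumin gene, was at 9.16, 1.66, 2083 and 65.7 FPKM in the same order, and Apoa1 and Apoa2 were the next highest. The 10 smooth muscle markers summed to 2370 and 2446 FPKM with scramble siRNA, against 1507 and 1416 FPKM with circEsyt2 siRNA. Of the 9 tested, 7 were called lower by limma at an adjusted p under 0.05, against 7.26% of all tested genes. Fewer cells of a type cannot be told apart from less RNA per cell in bulk samples. Summed fibroblast markers were at 733 and 660 against 503 and 558 FPKM. Skeletal muscle markers, Eno3 and Pgam2 among them, summed to 27.0 and 28.3 against 18.0 and 22.2 FPKM. The macrophage sum was 12.7 and 16.3 against 49.3 and 9.30 FPKM, and the erythroid sum 1.32 and 3.07 against 15.5 and 0.838 FPKM. Both were highest in circEsyt2 siRNA replicate 1, the library with the most hepatocyte signal. The endothelial sum was 4.27 and 4.95 against 9.58 and 8.69 FPKM, higher in both circEsyt2 siRNA libraries. Of its 9 markers only 2 passed the filter on low values, Kdr and Cdh5. Kdr was at 1.23 and 1.26 against 4.32 and 4.00 FPKM (limma adjusted p = 0.0303), and Cdh5 was not called (0.407). Emcn was higher in both circEsyt2 siRNA libraries. Pecam1, Tek, Tie1, Vwf and Egfl7 overlapped between the groups, and Cldn5 was at 0 in all libraries. Circular RNA itself was not analysed here, because a gene table does not separate the circle from the linear transcript of its host gene.

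Promoter sequence is shown for 3 of the 10 genes because they stand for the 3 patterns found: Ldha was lower in both circEsyt2 siRNA libraries, Aldoa was higher in both, and Pgk1 overlapped between the groups. The sequences are RefSeq windows on GRCm38.p6, from 250 bases before to 50 after a transcript start, written 5′ to 3′ on the strand of the gene. Capitals mark ACGTG on either strand, the core letters of the element bound by HIF1. Where a gene had several windows, the first with the most matches is shown. They lie at chr7:46845554-46845853 on the plus strand (Ldha), chr7:126799205-126799504 on the minus strand (Aldoa) and chrX:106186850-106187149 on the plus strand (Pgk1).
Ldha: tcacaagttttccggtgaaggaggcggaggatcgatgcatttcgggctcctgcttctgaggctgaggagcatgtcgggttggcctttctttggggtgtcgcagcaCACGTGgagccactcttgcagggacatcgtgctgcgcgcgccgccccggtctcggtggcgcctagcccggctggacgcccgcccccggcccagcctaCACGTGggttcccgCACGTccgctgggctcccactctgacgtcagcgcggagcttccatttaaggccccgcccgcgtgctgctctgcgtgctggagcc
Aldoa: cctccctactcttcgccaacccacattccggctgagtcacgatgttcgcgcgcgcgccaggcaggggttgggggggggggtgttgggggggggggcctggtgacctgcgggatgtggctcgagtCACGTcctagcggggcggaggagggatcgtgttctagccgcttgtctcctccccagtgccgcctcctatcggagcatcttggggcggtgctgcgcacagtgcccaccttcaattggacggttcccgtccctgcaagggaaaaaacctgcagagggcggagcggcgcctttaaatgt
Pgk1: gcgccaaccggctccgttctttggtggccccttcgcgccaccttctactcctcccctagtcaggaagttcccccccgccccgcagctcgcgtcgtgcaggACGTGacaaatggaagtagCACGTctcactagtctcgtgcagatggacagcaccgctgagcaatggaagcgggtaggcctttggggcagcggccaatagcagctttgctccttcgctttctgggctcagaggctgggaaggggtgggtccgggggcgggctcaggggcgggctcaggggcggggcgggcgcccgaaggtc
The Ldha window held 5 matches, of which 4 are the overlapping pairs inside 2 copies of CACGTG, the palindrome bound by MYC and related factors. The Aldoa window held 1 match and the Pgk1 window 2. Of the 10 genes, 6 had ACGTG in at least 1 window (Hk1, Hk2, Aldoa, Pgk1, Pkm and Ldha), and Ldha alone among them had CACGTG. Among all 32851 RefSeq windows of this length, 19.6% held ACGTG and 7.15% held CACGTG on either strand, and 7 of the 17 windows of these 10 genes held ACGTG. The matches describe letters only, and no binding was measured.

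The level of the 10 genes spanned a 63.2-fold range of mean FPKM over the 4 libraries, and their order changed little between libraries. Ldha (mean 457.9 FPKM) and Aldoa (451.7 FPKM) headed the list, at places 53 and 58 among the 11290 tested genes. Their libraries overlapped, and which of them came first differed: Ldha was higher in both scramble libraries and Aldoa in both circEsyt2 siRNA libraries. Below them Pgk1 (287 FPKM), Pkm (240.5 FPKM), Eno1 (149.7 FPKM), Gpi1 (36.9 FPKM) and Hk2 (27.0 FPKM) kept the same order in each library without overlap between neighbours. The lowest places went to Pfkl (12.6 FPKM), Hk1 (10.8 FPKM) and Pfkp (7.25 FPKM), and within this group neighbours overlapped. On this per-length scale the hexokinase and phosphofructokinase genes among the 10 lay below Gpi1 and below each of the 10 that acts after phosphofructokinase. This order is limited to the 10, since Gapdh, a later gene outside them, had a mean of 17.7 FPKM, below Hk2.

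**Figure D1:**
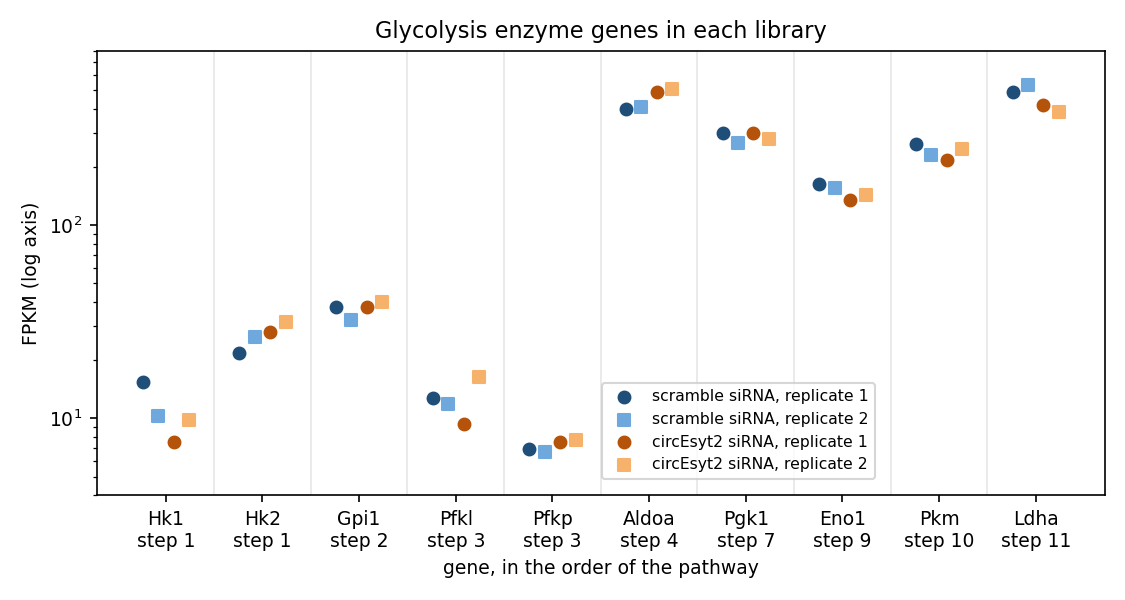
FPKM (log axis) of the 10 glycolysis genes in the order of the pathway, 1 point per library, circles for replicate 1 and squares for replicate 2 of scramble siRNA (blue) and circEsyt2 siRNA (orange). Aldoa lies higher and Ldha lower in both circEsyt2 siRNA libraries, while Pgk1, Pkm, Gpi1 and Pfkl overlap between the groups.

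The comparison asks whether the enzyme genes differ between cells given circEsyt2 siRNA and cells given scramble siRNA. None of the 10 passed the test (limma, Benjamini-Hochberg adjusted over all genes tested), against 12.7% of all tested genes in either direction. At an unadjusted p under 0.05 limma had 2 of the 10, Aldoa and Ldha, against 30.1% of all tested genes. The median log2 fold change of the 10 was 0.02, beside 0.0037 over all genes tested, and single values ran from −0.50 (Hk1) to 0.30 (Aldoa). With voom, which weights recovered read numbers, Aldoa and Ldha passed (adjusted p = 0.0314 and 0.0234), against 18.5% of the genes in that fit. The groups did not overlap for 6 of the 10, 3 higher and 3 lower with circEsyt2 siRNA. Among all tested genes the groups did not overlap for 60.7%, 29.7% higher and 31.1% lower. Log2 fold changes here are of FPKM + 1, which understates the change of low genes, and brackets give 95% intervals.

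In the opening step, the hexokinases trap glucose as glucose 6-phosphate. Hk1, the widely expressed form on chromosome 10 (62268855 to 62379908, minus strand, GRCm38), measured 15.4 and 10.3 FPKM with scramble siRNA, against 7.56 and 9.78 FPKM with circEsyt2 siRNA. Both circEsyt2 siRNA libraries were lower, but scramble replicate 1 stood well above the other 3 libraries. The log2 fold change was −0.50 (interval −1.07 to 0.06, adjusted p = 0.206), and it was −0.24 without scramble replicate 1. Hk2, the inducible muscle form on chromosome 6 (82725025 to 82774454, minus strand), measured 21.8 and 26.4 FPKM with scramble siRNA, then 28.2 and 31.6 FPKM with circEsyt2 siRNA. The groups did not overlap, and the difference of 0.30 (interval −0.06 to 0.66) did not pass (adjusted p = 0.232). Hk2 made up 58.2% and 71.6% of the hexokinase FPKM after scramble siRNA, compared with 71.1% and 73.6% after circEsyt2 siRNA. That share overlapped between groups (exact two-sided permutation p = 0.667, where 2 against 2 libraries cannot go below 0.333). Hk1's share was 41.0% and 28.0% against 19.1% and 22.8%. The part of the hepatocyte signal in these shares was not tested.

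Gpi1, which converts glucose 6-phosphate to fructose 6-phosphate, lies on chromosome 7 (34201330 to 34230336, minus strand). It measured 37.8 and 32.5 FPKM against 37.6 and 39.8 FPKM, with scramble values first as in the following lists of 4. The groups overlapped, and the log2 fold change was 0.14 (interval −0.18 to 0.46, adjusted p = 0.513). An antisense gene, Gm26762, covers 741 bases of Gpi1 exons, and its reads cannot be told apart where counting ignores strand.

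Phosphofructokinase commits the sugar to glycolysis and is the step most strongly controlled by the cell's energy state. Pfkl, the liver-type subunit on chromosome 10 (77986947 to 78010083, minus strand), measured 12.7 and 11.9 FPKM against 9.39 and 16.3 FPKM. The 2 circEsyt2 siRNA libraries lay on opposite sides of the scramble libraries, 0.74 apart on the log2 scale, the widest gap between replicates among the 10 genes. Its fold change of 0.01 (interval −0.62 to 0.64) became 0.38 without circEsyt2 siRNA replicate 1 and −0.36 without replicate 2. Pfkp, the platelet-type subunit on chromosome 13 (6579768 to 6648777, minus strand), measured 6.97 and 6.71 FPKM against 7.57 and 7.76 FPKM. The groups did not overlap, and the difference was 0.14 (interval −0.24 to 0.53, adjusted p = 0.568). Pfkp shares 748 exon bases with Pitrm1 on the other strand. The muscle subunit gene Pfkm measured 9.04 and 6.62 FPKM against 3.34 and 4.12 FPKM, a log2 fold change of −0.89 that missed the threshold narrowly (adjusted p = 0.0504). It passed with a pseudocount of 0.1 (adjusted p = 0.0408) and with a mean FPKM of at least 5 (adjusted p = 0.0454). In 13 of 15 alternatives Pfkm stayed uncalled, among them no filter on low values (adjusted p = 0.0970) and eBayes without a trend (0.0849). The share of Pfkm among the 3 subunits was 31.5% and 26.2% against 16.5% and 14.6% (exact permutation p = 0.333, the smallest possible).

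Aldolase splits fructose bisphosphate into 2 triose phosphates. Aldoa, its muscle and general form on chromosome 7 (126795234 to 126800751, minus strand), measured 402 and 407 FPKM with scramble siRNA, then 489 and 509 FPKM with circEsyt2 siRNA. Both circEsyt2 siRNA libraries were higher than both scramble libraries, and replicates differed by no more than 0.06 on the log2 scale. The mean was 1.23-fold higher, at 404 ± 4.01 against 499 ± 14.6 FPKM (SD, n = 2; limma log2 fold change 0.30, interval 0.09 to 0.52, adjusted p = 0.0768). These values rest on 2942 to 5355 reads per library. Without circEsyt2 siRNA replicate 1, the library with the high hepatocyte markers, the fold change of Aldoa was 0.33. Aldoc, the brain form, measured 1.95 and 1.94 against 1.14 and 1.57 FPKM (adjusted p = 0.5004).

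The following steps oxidise the triose phosphates and make the first ATP. Tpi1, which interconverts the trioses, measured 132 and 137 FPKM against 157 and 154 FPKM (log2 fold change 0.21, adjusted p = 0.202). Gapdh, the dehydrogenase often used as a reference gene, measured 19.8 and 23.6 FPKM against 14.9 and 12.3 FPKM (log2 fold change −0.64, adjusted p = 0.0582). That level lay below those of the neighbouring steps Tpi1 and Pgk1, and 77 other annotated genes held a transcript at least 95% identical to Gapdh over 300 or more bases. How multiply aligned reads were counted is not given in the sources used here, so the Gapdh level is uncertain.

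Pgk1, which makes ATP from bisphosphoglycerate and lies on chromosome X (106187100 to 106203699, plus strand), measured 302 and 267 FPKM against 301 and 278 FPKM. The groups interleaved, and the difference was 0.03 (interval −0.24 to 0.29, adjusted p = 0.881). Pgk1 had 4 near-identical copies by the same measure, among them Pgk1-rs7. Pgam1, the mutase that follows, was at 233 and 213 FPKM against 223 and 212 FPKM (log2 fold change −0.03, adjusted p = 0.847). Pgam2, the muscle mutase, was at 3.78 and 4.34 against 1.26 and 1.90 FPKM (adjusted p = 0.0602). Bpgm and Pgam5, which were listed with this step, did not pass (adjusted p = 0.123 and 0.277). The listing does not show that Pgam5 acts in glycolysis.

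Enolase makes phosphoenolpyruvate. Eno1, the general form on chromosome 4 (150236721 to 150248879, plus strand), measured 163 and 156 FPKM with scramble siRNA, against 135 and 144 FPKM with circEsyt2 siRNA. Both circEsyt2 siRNA libraries were lower, and the log2 fold change of −0.19 (interval −0.44 to 0.05) did not pass the test (adjusted p = 0.247). Eno1b, a copy 99.5% identical in its transcript, was at 75.1 and 88.5 FPKM against 65.2 and 68.2 FPKM, and the split of reads between the pair is uncertain. Eno3, the muscle enolase, fell from 14.4 and 15.9 FPKM to 2.60 and 2.94 FPKM, 5.47-fold by mean FPKM (log2 fold change −2.10, SE 0.17, limma adjusted p = 0.00369). It rests on 63 and 114 reads against 17 and 16, and it fell beside the lower smooth muscle markers given above, whose part was not tested. Eno3 and Pgam2 are also among the skeletal muscle markers, of which 3 were tested, with 1 higher and 1 lower (Eno3). The higher one was Acta1, at 5.69 and 6.48 against 12.6 and 13.9 FPKM (limma adjusted p = 0.0159). Among all tested genes 5.47% were higher and 7.26% lower. Eno2, the neuronal form, had a log2 fold change of 0.11 (adjusted p = 0.764). The share of Eno3 in enolase FPKM was 5.54% and 6.01% against 1.24% and 1.32%, and the summed enolase level was 259.7 and 265 against 209 and 223 FPKM.

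Pkm encodes the pyruvate kinase of muscle and proliferating cells, which makes the second ATP, and lies on chromosome 9 (59656368 to 59679375, plus strand). It measured 264 and 232 FPKM against 219 and 247 FPKM. The groups overlapped, and the difference was −0.09 (interval −0.37 to 0.20, adjusted p = 0.643). The gene total does not separate its alternatively spliced M1 and M2 forms. Pklr, the liver and red cell form, was at 0 in both scramble libraries and at 2.13 and 0.198 FPKM with circEsyt2 siRNA.

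Lactate dehydrogenase closes the pathway, its A subunit favouring lactate production and its B subunit found in oxidative tissue. Ldha, on chromosome 7 (46841475 to 46855627, plus strand), had 3 near-identical copies by the measure used for Gapdh. It measured 490.1 and 534 FPKM with scramble siRNA, against 419.7 and 388 FPKM with circEsyt2 siRNA. Both circEsyt2 siRNA libraries were lower than both scramble libraries. The mean was 1.27-fold lower, at 512 ± 31.3 against 404 ± 22.7 FPKM (SD, n = 2; limma log2 fold change −0.34, interval −0.58 to −0.10, adjusted p = 0.0758). Ldha passed under 4 of the 15 alternatives: scaling by the sum of FPKM (adjusted p = 0.0411), rescaling without the hepatocyte markers (0.0447), quantile normalization (0.0285) and voom (0.0234). Over all 15 alternatives its adjusted p ran from 0.0234 to 0.362 and its fold change from −0.40 to −0.28. Ldhb fell from 30.9 and 26.1 to 17.3 and 11.8 FPKM (log2 fold change −0.94, SE 0.21, limma adjusted p = 0.0379). Ldha made up 94.0% and 95.2% of the step's FPKM against 95.8% and 96.8%. The call of Ldhb was lost with eBayes without a trend (adjusted p = 0.0919), with no filter on low values (0.0529) and without circEsyt2 siRNA replicate 2 (0.110).

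**Figure D2:**
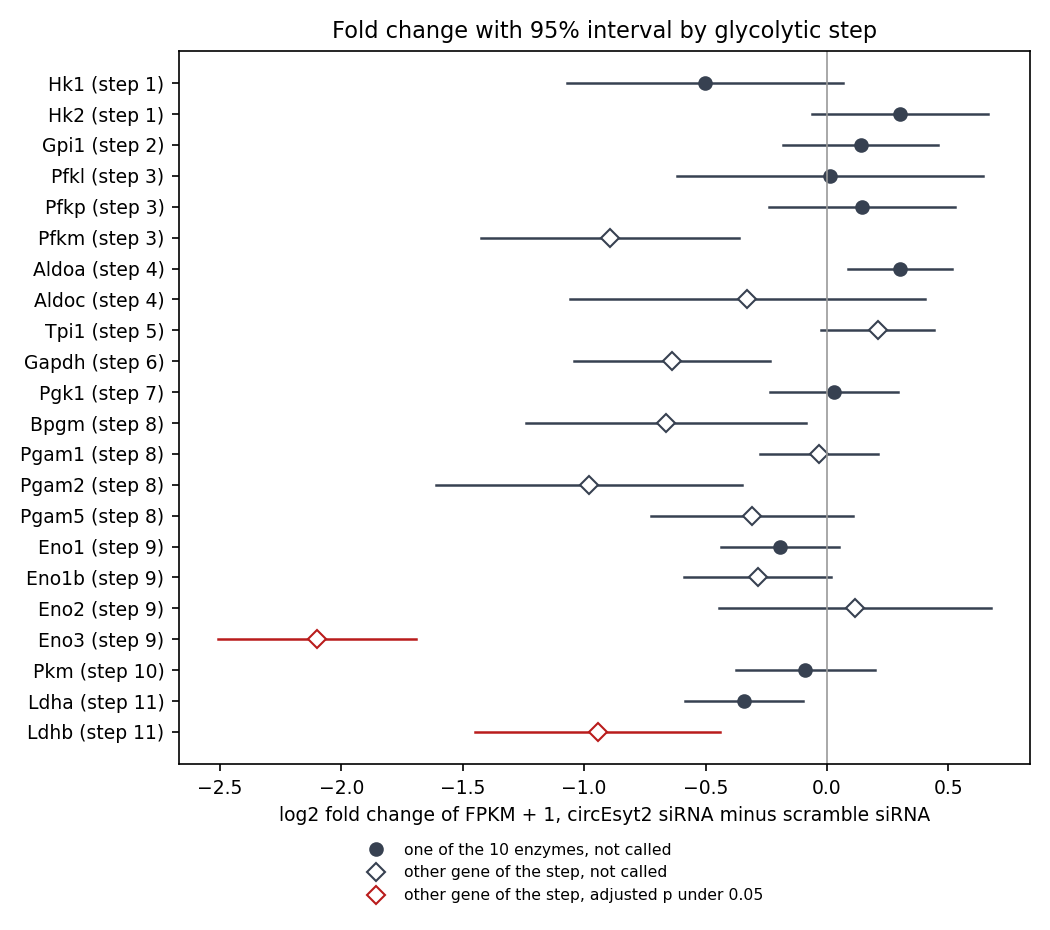
Log2 fold change of FPKM + 1 with its 95% interval (limma, circEsyt2 siRNA minus scramble siRNA) for the tested genes reported here of each glycolytic step, filled circles for the 10 enzymes and open diamonds for other genes of the same step, red where the adjusted p was under 0.05. Among the genes drawn, Eno3 and Ldhb are red, and the intervals of Aldoa and Ldha do not cross 0.

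Added over the 10 genes, the FPKM was 1716 and 1684 with scramble siRNA, against 1654 and 1672 with circEsyt2 siRNA. The sums did not overlap, but they differed by a ratio of 0.978 (exact permutation p = 0.333, the smallest possible). As a share of all FPKM in the library the 10 genes overlapped between groups, at 0.608% and 0.571% against 0.532% and 0.589% (exact permutation p = 0.667), so the separation of the sums depended on the scaling. Paralogs were also summed by step, and the sum for aldolase is not reported here. Among the other steps, hexokinase was 1.11-fold and triose phosphate isomerase 1.16-fold higher by mean FPKM. Lactate dehydrogenase was at a ratio of 0.774 and enolase at 0.823. For these 4 steps and for Gapdh and Gapdhs together (ratio 0.657) the groups did not overlap, and at 2 libraries per group none of them could reach a p below 0.333. Glucose phosphate isomerase, phosphofructokinase, phosphoglycerate kinase, phosphoglycerate mutase and pyruvate kinase had ratios between 0.899 and 1.10, with overlapping groups. The 5 tested genes whose profile over the 4 libraries lay closest to the mean profile of the 10, by root mean square distance of centred log2 values, were Dcp2, Gpat4, Atp7a, Gtf3c6 and Trip12. Their distances ran from 0.0047 to 0.015, while the 10 genes themselves lay 0.0489 (Pkm) to 0.295 (Hk1) from their own mean.

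**Figure D3:**
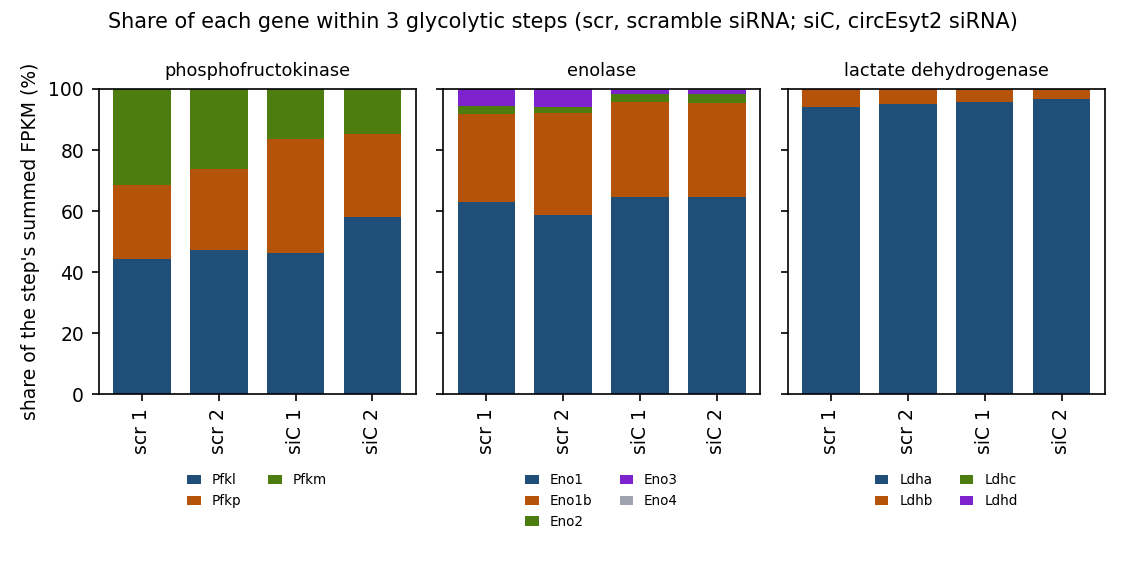
Share (%) of each gene in the summed FPKM of 3 glycolytic steps, 1 bar per library (scr, scramble siRNA; siC, circEsyt2 siRNA). Pfkm and Eno3 take smaller shares in both circEsyt2 siRNA libraries than in either scramble library.

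Beyond the 10 enzymes, the remaining genes of the same steps had 13 of 22 members tested, with 0 higher and 2 lower (Eno3 and Ldhb), against 5.47% of all tested genes higher and 7.26% lower. Their median log2 fold change was −0.33. The list shares genes with the hepatocyte markers, among them Pklr, which was not tested and so is not in this median. Another shared gene, not reported here, was tested and is in it. Of 8 tested transporter genes of glucose and lactate 0 were higher and 3 lower, with a median of −0.13. Slc16a3, the lactate exporter MCT4, fell from 18.0 and 14.6 to 8.34 and 9.92 FPKM (log2 fold change −0.77, limma adjusted p = 0.0415), a call kept in only 4 of 15 alternatives. The sugar transporter genes Slc2a10 and Slc2a6 fell by 1.47 and 1.02 on the log2 scale (limma adjusted p = 0.0228 and 0.0357), calls lost in 3 and 7 of 14 alternatives. Slc2a1, the main glucose importer GLUT1 and among the 2 most abundant of this list, measured 61.8 and 57.5 against 71.5 and 91.02 FPKM (log2 fold change 0.43, adjusted p = 0.112). Bsg, the chaperone of lactate transporters, was at 345 and 335 against 386 and 399 FPKM (adjusted p = 0.181).

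None of the 10 genes around fructose bisphosphate and sugar phosphates passed, with Pgm1 and Pgp the most abundant (log2 fold changes −0.12 and −0.20). None of the 15 genes of the pyruvate dehydrogenase gate, which admits pyruvate to the mitochondrion, passed either. In limma 1 gene of the first list and 4 of the second had an unadjusted p under 0.05, against 30.1% of all tested genes, and the medians were −0.12 and 0.04. With voom the lists other than the 10 enzymes had 13 higher and 13 lower of 87 tested, where 18.5% of all genes in that fit passed in either direction. Dld, the dihydrolipoamide dehydrogenase subunit, measured 25.4 and 33.9 against 42.9 and 43.7 FPKM (log2 fold change 0.55, adjusted p = 0.0828), and Pdha1 had a log2 fold change of 0.24 (adjusted p = 0.218). In the reverse pathway, gluconeogenesis, 1 of 7 tested genes was higher, against 5.47% of all tested genes, and the median was 1.58. Pck2, the mitochondrial phosphoenolpyruvate carboxykinase, rose from 2.80 and 2.86 to 8.34 and 9.79 FPKM (log2 fold change 1.39, SE 0.18, limma adjusted p = 0.0102), a call lost in 3 of 15 alternatives. The liver genes of this list, Pck1, Fbp1 and G6pc, were at 9.68, 22.8 and 13.2 FPKM in circEsyt2 siRNA replicate 1 and at most 1.21 FPKM in the other 3 libraries. They passed the filter on low values only through that replicate. The list's median of 1.58 is the value of G6pc, so it does not describe a shift of the list. Gpd2, the mitochondrial glycerol phosphate dehydrogenase, had a log2 fold change of −0.49 (adjusted p = 0.0894).

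In the pentose phosphate branch, which diverts glucose 6-phosphate to NADPH and ribose, 1 of 10 genes was higher and 1 lower, against 5.47% and 7.26% of all tested genes, with a median of −0.05. Taldo1, the transaldolase that returns pentose carbon to glycolysis, rose from 33.7 and 29.7 to 54.0 and 59.7 FPKM (log2 fold change 0.82, limma adjusted p = 0.0155), and the call was lost in 4 of 15 alternatives, among them eBayes without a trend (0.0645). Prps2, which makes the ribose donor of nucleotides, fell by 0.70 (adjusted p = 0.0373), a call lost in 7 of 15 alternatives, and G6pdx, the first enzyme of the branch, had a log2 fold change of −0.24 (adjusted p = 0.196).

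Among 12 regulators of the pathway 1 was higher, against 5.47% of all tested genes, and the median was 0.24. Myc rose from 20.8 and 22.7 to 40.2 and 47.2 FPKM, 2.01-fold by mean FPKM (log2 fold change 0.97, SE 0.14, limma adjusted p = 0.0119), and the call was lost in 4 of 15 alternatives, among them eBayes without a trend (0.0521). Hif1a measured 194 and 189 against 239 and 258 FPKM (log2 fold change 0.37, adjusted p = 0.0595), and Egln3, a prolyl hydroxylase that marks HIF for breakdown, 68.8 and 68.2 against 49.2 and 54.7 FPKM (−0.39, adjusted p = 0.0747). Of 16 known HIF1 targets that are not glycolytic enzymes, 4 were higher and 2 lower, against 5.47% and 7.26% of all tested genes, with a median of 0.28. Ndrg1, Stc2, Bhlhe40 and Bnip3 rose, by 2.46, 2.41, 1.37 and 0.75 on the log2 scale. P4ha2, a collagen prolyl hydroxylase gene, fell from 52.4 and 49.8 to 23.2 and 21.6 FPKM, and Adm, the gene of the vasodilator adrenomedullin, fell from 371 and 371 to 203 and 171 FPKM. Fam162a, a mitochondrial protein gene, had a log2 fold change of 0.04 (adjusted p = 0.870), which turned negative when scaled by the sum of FPKM or quantile normalized. The 4 that rose and the 2 that fell all had an adjusted p between 0.00256 (Ndrg1) and 0.0226 (Bnip3) in limma. Of these 6 calls, that of Bnip3 was lost in 4 of 15 alternatives, that of Stc2 in 3 and each of the others in 2. Together, the 8 lists beside the 10 enzymes had 7 higher and 8 lower of 91 tested genes, against 5.47% higher and 7.26% lower among all tested genes. Every call named here for a single gene was lost when either scramble library was left out, since no gene of the table then passed.

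**Figure D4:**
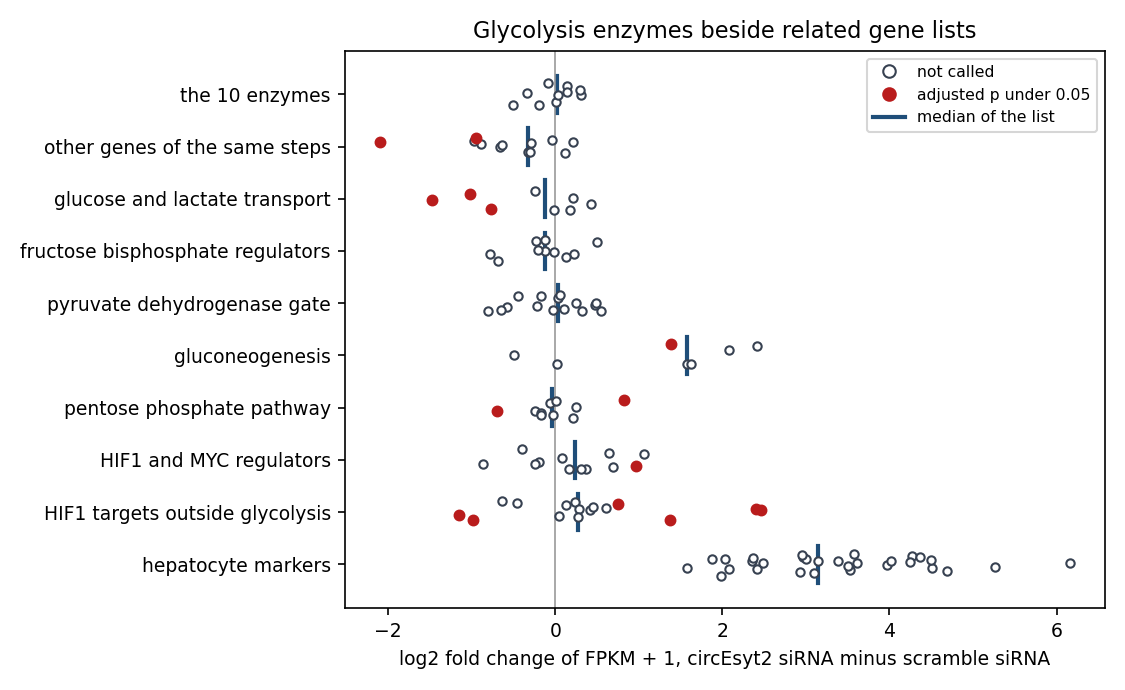
Log2 fold change of FPKM + 1 (circEsyt2 siRNA minus scramble siRNA) of the tested genes reported here in the 10 enzymes, the 8 related lists and the hepatocyte markers, red where limma's adjusted p was under 0.05, with a bar at each list's median. The 10 enzymes lie between −0.50 and 0.30, and the hepatocyte markers all lie above 0 with none called. Most of these markers, and Pck1, Fbp1 and G6pc of the gluconeogenesis list, passed the filter on low values only through circEsyt2 siRNA replicate 1. Their side of 0 was thus set by the filter and is no result.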

How the data were processed

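RNA of 4 libraries, taken as total RNA and prepared with a TruePrep kit per the labels, was measured, 2 per group. The authors deposited FPKM, 1 file per library. Per the submitters' processing notes, Trimmomatic, HISAT2 and featureCounts were used and the builds are GRCm38 and mm10. Versions, settings and strand use are not stated by any source used here. Because FPKM divide by the library total, very abundant genes lower the values of the rest.

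Library totals were solved from the FPKM with GENCODE M21 exon lengths (22391 symbols found). Of the matched values above 0, 96.5% to 96.7% gave whole read numbers within 0.001. The most common number was 2, and 64.0% to 77.0% of numbers up to 10 were even, so mates may have been counted singly and independent fragments may be fewer. One read in a 1 kb gene is worth 0.243 to 0.397 FPKM.

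The test was limma 3.58.1 in R 4.3.3 (eBayes with a trend, two-sided) on log2(FPKM + 1) where the mean FPKM reached 1 or more, adjusted by Benjamini-Hochberg over all of them at a threshold of 0.05. In simulated reads for the real genes, limma called 63 (64.9%) of 97 genes given a log2 change of 1 and 88 (96.7%) of 91 given 2. It also called 18 of 10667 unchanged genes. All genes shared 1 dispersion (0.00615), and no hepatocyte signal was simulated, so the real libraries may be noisier. Changes between 0 and 1, the range of the 10 enzymes, were not simulated. Near-identical copies were found with blastn 2.17.0 against M21 transcripts. Members, lists and tests were chosen with earlier results of these data known. Named genes are the 10 members, tested genes of the same steps, and in each other list up to 5 called genes with the smallest p and the 2 most abundant; Pklr, Pck1, Fbp1 and G6pc are shown as hepatocyte markers, chosen after their values were seen, as was Bnip3. Some genes of these lists are not reported here. Alternatives were 15 in number: pseudocount, filter, trend, scaling, voom, the replicate block and leaving out each library. Tagln, Des, Acta2, Myl9 and Cald1 check the cell type.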

Additional observations from a re-analysis of the deposited data

How the results depend on the processing

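Across 15 alternatives the 10 enzymes gave 150 fold changes, of which 134 kept their direction and their side of the threshold, 11 turned in sign and 5 passed it. The sign turned only for Pfkl, Pgk1 and Pkm, whose main values lay near 0. Scaled by the sum of FPKM, Pfkl was −0.0252, Pgk1 −0.0123 and Fam162a −0.0015; rescaled without the hepatocyte markers, Pfkl was −0.0156 and Pgk1 −0.0017; under quantile normalization Pgk1 was −0.0317 and Fam162a −0.0285; with voom Pfkl was −0.0070. Without 1 library each, Pfkl ran from −0.36 to 0.38, Pgk1 from −0.0604 to 0.12, Pkm from −0.18 to 0.0036, Eno2 from −0.11 to 0.34, Pgam1 from −0.0953 to 0.0284 and Fam162a from −0.0816 to 0.16. The cause was not tested. The number of the 10 lower was 1 when scaled by the sum of FPKM, rescaled without the hepatocyte markers, quantile normalized or with voom, and voom had 1 higher. The median of the 10 ran from −0.05 to 0.09 without 1 library each.

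Among the related lists (7 higher and 8 lower), no filter gave 4 lower, a mean FPKM of at least 5 gave 12 higher, eBayes without a trend 4 higher and 4 lower, and voom 13 and 13. Over all genes (617 higher and 820 lower) eBayes without a trend gave 203 and 374. With the replicate block, the replicate number of the titles as a term, 404 genes were higher and 604 lower, the related lists had 5 lower, and none of the 10 enzymes passed. The deviations of same-numbered libraries correlated at −0.0507 over 11290 genes. With 2 libraries per group, replicate 1 set against replicate 2 gives only the mirror value, 0.0507. Whether same-numbered libraries shared a batch or a culture was therefore not tested. Without either scramble library no gene was called, so every call was lost there; leaving out 1 library in turn gave 0 to 405 higher and 0 to 622 lower over all genes, and 0 to 8 higher and 0 to 7 lower in the related lists. The difference in Hk2 share ran from 0.777 to 14.1 percentage points and in summed FPKM of the 10 from −52.8 to −21.5.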
